A study of Mus musculus with 8 samples.

Results

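The MAP kinase phosphatases are the dual-specificity phosphatases of the Dusp gene family that switch off MAP kinases. The genes described are Dusp1, Dusp4, Dusp5, Dusp6, Dusp7, Dusp8, Dusp9, Dusp10 and Dusp16, chosen by symbol. All 9 were among the 15288 genes of the count table and all 9 passed the low-count filter, which left 14024 genes to test. RNA came from IMCD, a mouse kidney cell line of the inner medullary collecting duct, the last segment of the renal tubule. Cells of both groups were grown to confluence with serum and then held in serum-free DMEM for 12 h, either without added salt (control, 4 libraries numbered 1 to 4) or with 100 mmol NaCl (NaCl, 4 libraries numbered 5 to 8). The volume behind the NaCl amount is not given. Each sample is a bulk culture of a single line, and nothing states whether libraries of a group came from separate cultures, so the p-values measure the spread between these libraries only.

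MAP kinases are activated when a threonine and a tyrosine in their activation loop are phosphorylated, and the MAP kinase phosphatases remove both phosphates. A docking region in each phosphatase selects among the substrates ERK, p38 and JNK. Dusp8, Dusp10 and Dusp16 act mainly on p38 and JNK. Dusp1 is nuclear, prefers p38 and JNK and can also act on ERK, and is grouped here with the p38/JNK-directed enzymes. Dusp5 (nuclear) and Dusp6, Dusp7 and Dusp9 (mostly cytoplasmic) are ERK-directed, and the nuclear Dusp4 acts on ERK and JNK and is kept apart. Several of these genes are themselves induced by MAP kinase signalling and form feedback loops. In renal medullary cells hypertonicity is known to activate p38, JNK and ERK.

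Promoter sequence is shown for the 2 members that rose and hold a full cyclic AMP response element (CRE), Dusp1 and Dusp8, and for Dusp5, which fell and holds CArG boxes, the binding motif of serum response factor. The windows run from 250 bases before to 50 after the annotated RefSeq start, on GRCm38.p6. RefSeq promoters matched 7 of the 9 members. Dusp4 and Dusp9, which both fell, had no window, so their motifs were not read. Capitals mark matches to TGACG (the core of a CRE, searched on both strands and lying inside the full element TGACGTCA), CACGTG (an E-box), TGANTCA (the AP-1 motif), CCGGAA (an ETS core), CArG and the tonicity-responsive element TonE. Sequences read 5′ to 3′ along the gene, at chr17:26508423-26508722 (minus strand) for Dusp1, chr7:142095235-142095534 (minus strand) for Dusp8 and chr19:53528895-53529194 (plus strand) for Dusp5.
Dusp1: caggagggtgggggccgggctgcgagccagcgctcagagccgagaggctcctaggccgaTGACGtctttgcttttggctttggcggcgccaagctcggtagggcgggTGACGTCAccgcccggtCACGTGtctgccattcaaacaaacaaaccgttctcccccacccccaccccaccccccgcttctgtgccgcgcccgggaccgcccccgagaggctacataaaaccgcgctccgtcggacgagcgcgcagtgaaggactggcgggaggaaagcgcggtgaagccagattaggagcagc
Dusp8: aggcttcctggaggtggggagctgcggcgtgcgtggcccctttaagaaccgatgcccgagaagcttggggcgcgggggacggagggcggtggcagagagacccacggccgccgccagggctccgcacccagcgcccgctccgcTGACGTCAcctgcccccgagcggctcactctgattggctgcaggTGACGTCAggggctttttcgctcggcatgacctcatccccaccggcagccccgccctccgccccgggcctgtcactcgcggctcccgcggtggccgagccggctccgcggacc
Dusp5: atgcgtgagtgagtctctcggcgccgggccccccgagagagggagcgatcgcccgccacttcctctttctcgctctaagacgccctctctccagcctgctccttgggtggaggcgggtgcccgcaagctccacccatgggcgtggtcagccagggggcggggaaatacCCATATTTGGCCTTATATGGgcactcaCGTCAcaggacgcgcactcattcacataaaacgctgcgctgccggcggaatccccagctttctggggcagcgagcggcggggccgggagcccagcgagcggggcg

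The Dusp1 window held TGACGTCA at -143 to -136, a further TGACG at -191 to -187 and an E-box at -126 to -121, counted from the start with no position 0. The Dusp8 window held TGACGTCA at -107 to -100 and again at -63 to -56. In Dusp5 a pair of CArG boxes lay end to end at -82 to -73 and -72 to -63, and a TGACG on the minus strand lay at -55 to -51. The full CRE was present in 2 of the 7 member windows and in 1.79% of all 32851 windows. The core TGACG was present in 4 of 7, with Dusp16 as the remaining one, and in 20.8% of all. CArG was present in 1 of 7 and in 1.63% of all, and the E-box in 1 of 7 and in 7.15% of all. No member window held AP-1 (7.81% of all), CCGGAA (14.9%), TonE (4.96%) or its core TGGAAA (21.4%). GC content was 67.0% for Dusp1, 73.3% for Dusp8 and 66.7% for Dusp5, where the median of all windows was 52.7%. These matches describe letters in the windows, and no binding was measured.

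Total counts were 41.8 to 47.6 M in the control and 35.3 to 42.4 M in the NaCl libraries. The labelled cell type was checked on 21 collecting duct genes. Of these, 20 were in the table, with Krt8, Krt18, Cdh16, Pax2 and Pax8 well expressed. The principal cell water channel Aqp2 had 0 to 3 counts in control and 8 to 15 in NaCl libraries, Aqp3 at most 28 counts and the cadherin Cdh1 at most 30 counts in any library. The summed level of the list was 1334 to 1710 CPM in control and 2315 to 2585 CPM in NaCl libraries, with the largest difference in Cdh16 (639 and 1380 CPM). Of its 17 tested genes 6 were higher, Pax2 and Pax8 among them, and 3 lower, Scnn1g, Gata3 and Tfcp2l1, and Krt8, Krt18, Krt19 and Epcam were not called. With a linear term for library number, 1 to 8, in the fit, 4 of the 17 were higher and 7 lower. Krt8, Krt18, Krt19 and Epcam were then called lower (edgeR adjusted p = 1.46e-04, 5.98e-08, 0.0066 and 0.0372), and Gata3 was not called (adjusted p = 0.223). Fibroblast markers were also present, at 3128 to 3635 CPM in control and 2820 to 3254 CPM in NaCl libraries, mostly from Col1a1. Lum and Thy1 were not among the rows. Of the 6 tested, Pdgfrb was higher, and Col1a1 and Pdgfra were lower. With the library-number term Pdgfrb alone was called, again higher. Leukocyte markers summed to 13.0 to 18.2 CPM and 21.4 to 26.3 CPM, and 4 of 8 markers were not among the rows. Ptprc was higher with NaCl, and Cd68 (log2 fold change -0.51) and Csf1r (-0.05) were not called. With the library-number term Ptprc stayed higher and Csf1r was called lower (edgeR adjusted p = 0.00173). Endothelial markers summed to at most 1.21 CPM in any library. Of 5 intercalated cell markers 1 was among the rows, Atp6v0d2. It had 1.45 to 2.22 CPM in control and 0.194 to 0.449 CPM in NaCl libraries. It was called lower without and with the library-number term (edgeR adjusted p = 7.08e-06 and 7.35e-04). The part of these cell type genes in the results was not tested. In bulk RNA, more transcript per cell and more cells that carry it cannot be told apart.

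Of the 9 phosphatase genes, 3 rose with NaCl, 3 fell and 3 did not pass the test (edgeR's quasi-likelihood test, adjusted p under 0.05 over all genes). Over all genes tested, 16.9% were called higher and 17.2% lower, 34.1% in all. The risers were Dusp1, Dusp8 and Dusp16, all p38/JNK-directed. Dusp5 and Dusp9, which are ERK-directed, and Dusp4 fell. Dusp6, Dusp7 and Dusp10 were not called. The groups did not overlap for the 6 called members, against 33.4% of all genes tested. Dusp1 and Dusp5 were called and changed by at least 2-fold. Of all genes tested, 2.04% were called and at least 2-fold higher, and 1.16% were called and at least 2-fold lower.

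**Figure D1:**
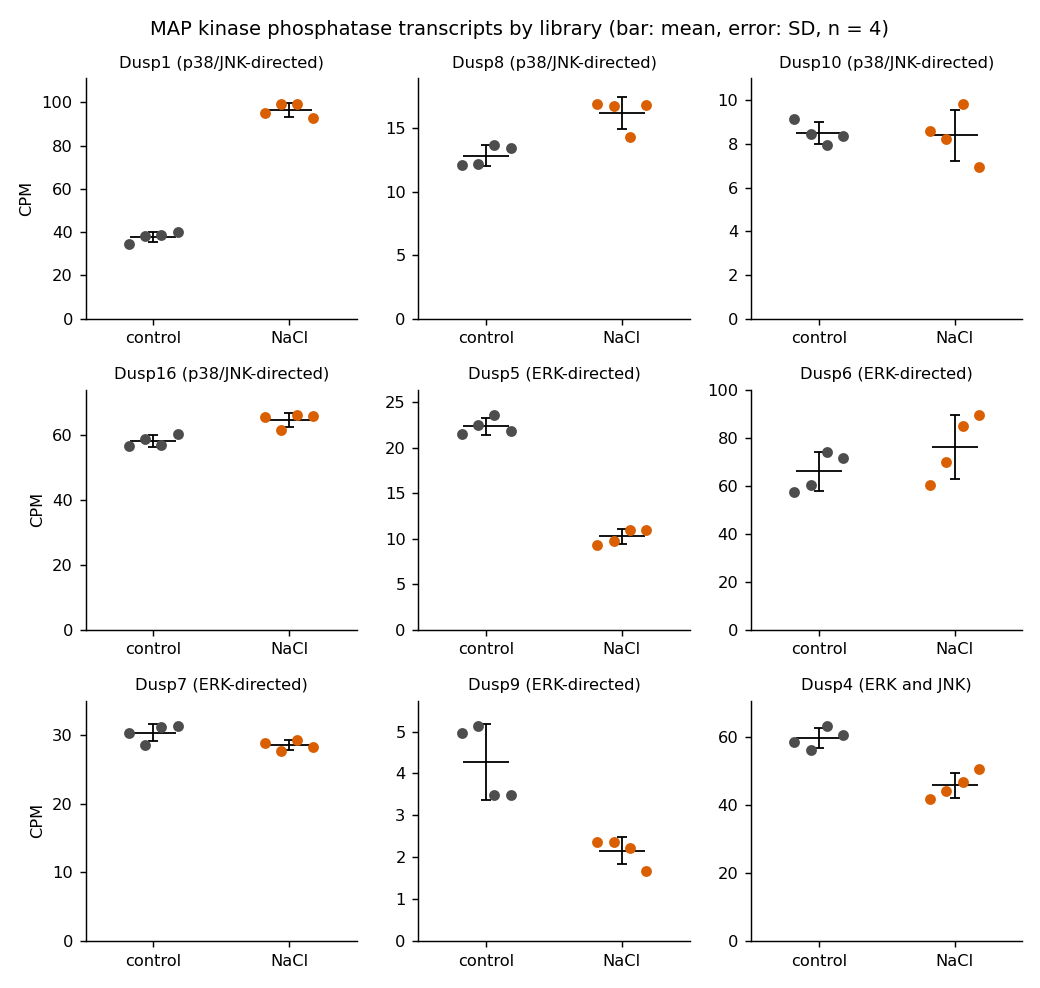
Level in CPM (counts scaled to library size, y axis from 0) of each member in the 4 control and 4 NaCl libraries, ordered by library number from left to right, with the mean (bar) and SD (error). Control and NaCl points separate fully for Dusp1, Dusp8, Dusp16, Dusp5, Dusp9 and Dusp4, and overlap for Dusp10, Dusp6 and Dusp7.

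Dusp1 (ENSMUSG00000024190, chromosome 17, 26505590 to 26562128, minus strand, GRCm38) encodes the founding nuclear MAP kinase phosphatase, an early-response gene. Its level in control libraries 1 to 4 was 34.6, 38.3, 38.6 and 39.9 CPM, and in NaCl libraries 5 to 8 it was 95.2, 99.1, 99.0 and 92.7 CPM. Every NaCl library therefore lay above every control, and the gap between the groups was many times the spread within either. The mean rose from 37.9 ± 2.29 to 96.5 ± 3.10 CPM (± SD, n = 4 per group), a fold of 2.55. The log2 fold change was 1.35 (SE 0.048, 95% interval 1.25 to 1.45) with an edgeR adjusted p of 2.28e-12. With a linear term for library number (a drift over 1 to 8) in the fit it was 1.26 (adjusted p = 4.84e-14). By size of increase Dusp1 was rank 175 of the 14024 genes tested. Exons of Dusp1 overlap those of Ergic1 on the opposite strand by 11 bases, 0.332% of its exon length.

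Dusp8 (ENSMUSG00000037887, chromosome 7, 142079490 to 142095843, minus strand), a JNK- and p38-directed phosphatase, had 12.1, 12.2, 13.7 and 13.5 CPM in control libraries. With NaCl it had 16.9, 16.8, 14.3 and 16.8 CPM. The groups were separate, although NaCl library 7 lay close to the highest controls. The mean rose from 12.9 ± 0.815 to 16.2 ± 1.27 CPM (± SD, n = 4 per group), which is 0.33 on the log2 scale (SE 0.080, edgeR adjusted p = 0.00375).

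Dusp16 (ENSMUSG00000030203, chromosome 6, 134715468 to 134792625, minus strand), a JNK- and p38-directed enzyme, had 56.6, 58.8, 57.2 and 60.6 CPM in control libraries. In NaCl libraries 5 to 8 it had 65.6, 61.7, 66.2 and 66.1 CPM. The increase was small, and NaCl library 6 lay just above the highest control. The mean rose from 58.3 ± 1.79 to 64.9 ± 2.14 CPM (± SD, n = 4 per group), which is 11.3% by the fitted fold. The log2 fold change was 0.15 (SE 0.042, edgeR adjusted p = 0.00896). With the drift in the fit, the log2 fold changes were 0.26 for Dusp8 (adjusted p = 0.241) and 0.08 for Dusp16 (adjusted p = 0.548), so both calls were lost. In that fit 11.5% of genes were called higher and 12.6% lower.

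Dusp10 (ENSMUSG00000039384, chromosome 1, 184013302 to 184075636, plus strand), the remaining p38/JNK-directed member, was at 9.16, 8.46, 7.95 and 8.35 CPM in control libraries. The NaCl libraries had 8.57, 8.23, 9.82 and 6.96 CPM. They held both the highest and the lowest value of the 8. Its log2 fold change was -0.02, with a 95% interval from -0.24 to 0.21 (edgeR adjusted p = 0.925).

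Dusp5 (ENSMUSG00000034765, chromosome 19, 53529109 to 53542431, plus strand) encodes the nuclear ERK phosphatase, an ERK-induced feedback gene. Control libraries had 21.5, 22.5, 23.6 and 21.8 CPM, and NaCl libraries had 9.35, 9.77, 11.0 and 10.9 CPM. Every NaCl library was far below the lowest control. The mean fell from 22.4 ± 0.908 to 10.3 ± 0.820 CPM (± SD, n = 4 per group), to 0.459 of the control level. The log2 fold change was -1.12 (SE 0.075, 95% interval -1.28 to -0.96; edgeR adjusted p = 6.51e-09). With the drift in the fit it was -1.30 (adjusted p = 1.90e-08). An antisense gene, AC137853.2, overlaps 22.1% of its exon length. That gene was at 0.220 CPM in control and 0.115 CPM in NaCl libraries, and the strandedness of the counting is not given in the sources used here.

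Dusp9 (ENSMUSG00000031383, chromosome X, 73639419 to 73643514, plus strand), a mostly cytoplasmic ERK phosphatase, was the least abundant member. Its counts in control libraries were 237, 216, 144 and 147, or 4.97, 5.12, 3.48 and 3.48 CPM. In NaCl libraries they were 85, 100, 92 and 70, or 2.37, 2.36, 2.23 and 1.67 CPM. Control libraries 1 and 2 were well above 3 and 4, and all 4 were above the NaCl libraries. The mean fell from 4.26 ± 0.907 to 2.16 ± 0.334 CPM (± SD, n = 4 per group), which is -0.98 on the log2 scale (SE 0.18, edgeR adjusted p = 4.16e-04). With the linear drift in the fit its log2 fold change was -0.22 (adjusted p = 0.681), so this call rests on the fit without drift.

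Dusp4 (ENSMUSG00000031530, chromosome 8, 34807297 to 34819894, plus strand), the nuclear phosphatase of ERK and JNK, had 58.5, 56.0, 63.0 and 60.5 CPM in control libraries. It had 41.7, 43.9, 46.6 and 50.5 CPM in NaCl libraries. The groups were separate, with the smallest distance at NaCl library 8. The mean fell from 59.5 ± 2.98 to 45.7 ± 3.79 CPM (± SD, n = 4 per group), which is 23.2% lower by the fitted fold. The log2 fold change was -0.38 (SE 0.057, edgeR adjusted p = 7.46e-05), and with the drift it was -0.63 (adjusted p = 1.52e-06), a shift of more than 1.5 times.

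Dusp6 (ENSMUSG00000019960, chromosome 10, 99263231 to 99267489, plus strand) encodes the cytoplasmic ERK phosphatase and is a standard transcriptional readout of ERK signalling. Control libraries 1 to 4 had 57.5, 60.5, 74.2 and 71.7 CPM, and NaCl libraries 5 to 8 had 60.3, 70.0, 85.0 and 89.4 CPM. Libraries 3 and 4 were above 1 and 2 in the control group, libraries 7 and 8 were above 5 and 6 in the NaCl group, and the groups overlapped. The means were 66.0 ± 8.21 and 76.2 ± 13.4 CPM (± SD, n = 4 per group). The log2 fold change was 0.21 (SE 0.15, 95% interval -0.14 to 0.56; edgeR adjusted p = 0.334). With library number as a covariate, centred inside each group, it was 0.20 (adjusted p = 4.64e-04), called higher. With the linear drift over 1 to 8 it was -0.44 (adjusted p = 5.48e-04), called lower. The library number and the group cannot be told apart across the groups, so these data give no settled direction for Dusp6.

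Dusp7 (ENSMUSG00000053716, chromosome 9, 106368632 to 106375724, plus strand), a cytoplasmic ERK phosphatase, had 30.3, 28.6, 31.2 and 31.3 CPM in control and 28.9, 27.7, 29.3 and 28.3 CPM in NaCl libraries. The groups overlapped through control library 2. Its log2 fold change was -0.09, with a 95% interval from -0.20 to 0.02 (edgeR adjusted p = 0.215).

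**Figure D2:**
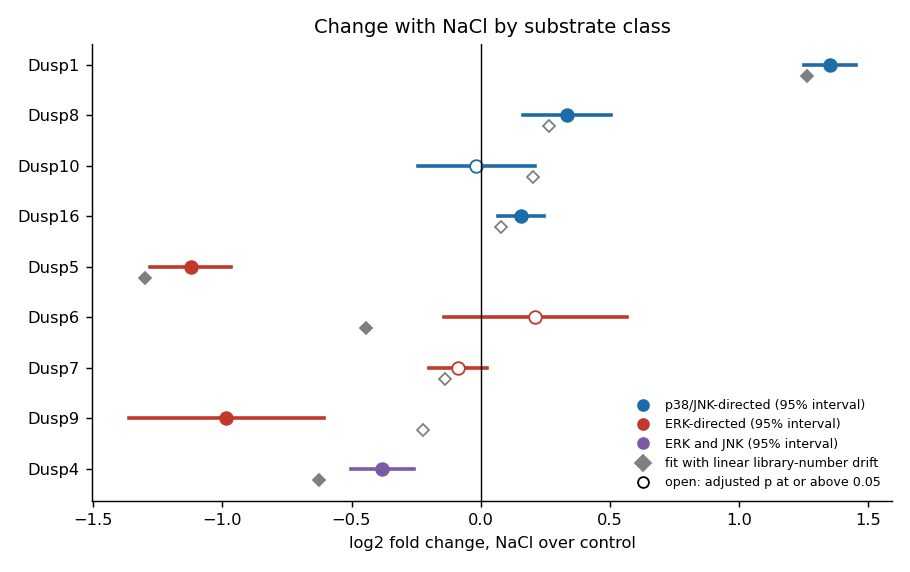
Log2 fold change of NaCl over control for each member (circles, with 95% intervals, coloured by substrate class) and in the fit with a linear library-number drift (grey diamonds). Filled symbols passed an adjusted p of 0.05. Dusp1, Dusp5 and Dusp4 are filled in both fits, and Dusp6 lies at 0.21 without and at -0.44 with the drift.

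The p38/JNK-directed class was then set against the ERK-directed class. Of the 4 p38/JNK-directed genes, 3 rose and 0 fell, with a median log2 fold change of 0.24 and a range from -0.02 to 1.35. Of the 4 ERK-directed genes, 0 rose and 2 fell, with a median of -0.54 and a range from -1.12 to 0.21. Of all genes tested 16.9% were called higher and 17.2% lower, and the median was 0.003. With the drift in the fit 1 of the 4 p38/JNK-directed genes was called higher, Dusp1, while Dusp5 and Dusp6 were the ERK-directed genes called lower. The difference between the class medians was 0.78. Without Dusp1 it was 0.69, and with the drift in the fit it was 0.57. With 4 genes in each class these are descriptions and were not tested.

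Summed over its members, the p38/JNK-directed class had 112 to 122 CPM in control and 183 to 189 CPM in NaCl libraries. The sum without Dusp1 was 77.9 to 82.4 CPM in control and 86.7 to 91.1 CPM in NaCl libraries, so most of the rise came from Dusp1. The ERK-directed sum was 114 to 132 CPM in control and 101 to 130 CPM in NaCl libraries and overlapped. Without Dusp6 it was 56.3 to 58.2 CPM and 39.8 to 42.6 CPM, with no overlap. Dusp6, the most abundant ERK-directed gene, thus carried the spread of that sum. The log2 ratio of the class sums was -0.06 ± 0.081 for control and 0.68 ± 0.18 for NaCl libraries (± SD, n = 4 per group). Without Dusp1 it was -0.62 ± 0.092 and -0.38 ± 0.18, with nearly touching ranges (-0.75 to -0.55 and -0.54 to -0.15), so the difference fell from 0.74 to 0.24. Without Dusp6 it was 1.04 ± 0.056 and 2.18 ± 0.033, a difference of 1.14. With all class members, and each gene first scaled to exon length, the ratio was -0.74 ± 0.074 and 0.21 ± 0.19. Dusp4, at 59.5 CPM in control and 45.7 CPM in NaCl libraries, is in neither class sum. Dusp1 is counted only as p38/JNK-directed, and other placements of these genes were not tried.

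Ratios of members within a library do not depend on library scaling. There were 1.61 to 1.83 counts of Dusp1 for each count of Dusp5 in control libraries, and 8.50 to 10.2 in NaCl libraries. For each count of Dusp4 there were 0.591 to 0.684 counts of Dusp1 in control and 1.84 to 2.29 in NaCl libraries. The log2 ratio of Dusp1 to Dusp6 was -0.94 to -0.66 in control and 0.05 to 0.66 in NaCl libraries. All 3 ratios were higher in every NaCl library than in any control.

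**Figure D3:**
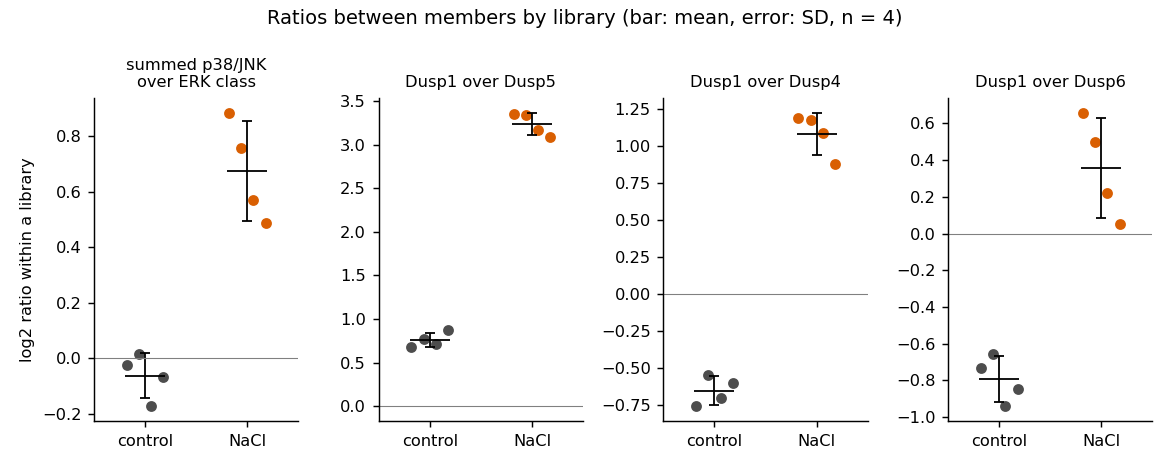
Log2 ratios within each library (y axes differ between panels) of the summed p38/JNK-directed over the summed ERK-directed class in CPM, and of the counts of Dusp1 over Dusp5, Dusp4 and Dusp6, with the mean and SD of 4 libraries. In each panel the 4 NaCl libraries lie above the 4 controls, and Dusp1 over Dusp5 moved from a mean of 0.76 to 3.24.

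Levels of different genes were compared as CPM per kilobase of exon, counting every annotated exon of a gene. That length was 3311 bases for Dusp1 and 7798 for Dusp16, where the longest transcripts had 2313 and 5104. For Dusp4 and Dusp5 it equalled the longest transcript. The order can therefore depend on the length used, and transcript lengths were not tried. In control libraries the order of these levels was Dusp4 (21.7 ± 1.09), Dusp6 (21.1 ± 2.62), Dusp1 (11.4 ± 0.692), Dusp7 (9.04 ± 0.364), Dusp5 (9.04 ± 0.367), Dusp16 (7.48 ± 0.229), Dusp10 (2.79 ± 0.165), Dusp8 (2.64 ± 0.167) and Dusp9 (1.57 ± 0.333; ± SD, n = 4 per group). The neighbours Dusp4 and Dusp6, Dusp7 and Dusp5, and Dusp10 and Dusp8 overlapped between libraries. With NaCl, Dusp1 stood first at 29.2 ± 0.937 CPM per kilobase, overlapping with Dusp6 at 24.3 ± 4.29. Dusp4 followed at 16.7 ± 1.38, then Dusp7 at 8.50 ± 0.218 and Dusp16 at 8.32 ± 0.274, which overlapped. Dusp5 was at 4.14 ± 0.332, below Dusp16 and above Dusp8 (3.33 ± 0.261) and Dusp10 (2.76 ± 0.386), and these last 2 overlapped. Dusp9 was lowest at 0.793 ± 0.123. By this measure the highest level was that of Dusp4 or Dusp6 in control libraries and of Dusp1 or Dusp6 in NaCl libraries.

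**Figure D4:**
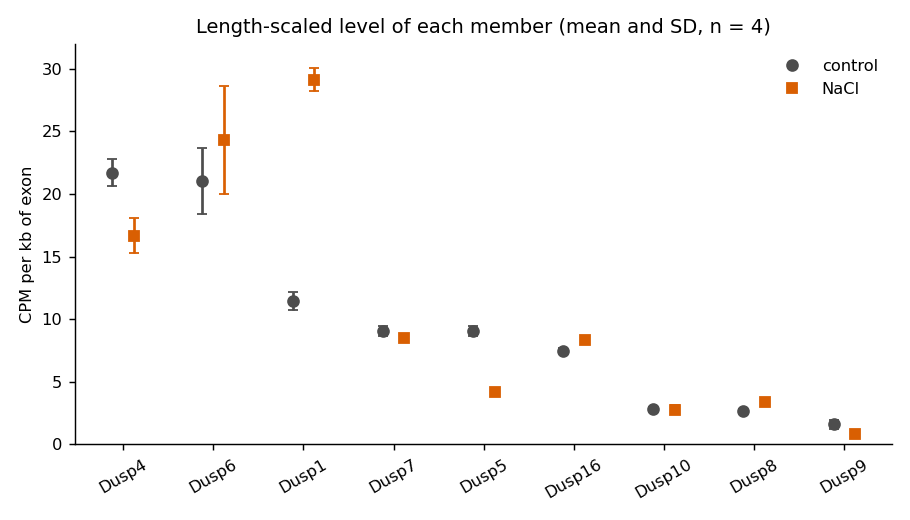
Level of each member in CPM per kilobase of exon (y axis), as the mean and SD of 4 control (circles) and 4 NaCl libraries (squares), ordered by the control mean. Dusp1 moves from 11.4 to 29.2 and Dusp5 from 9.04 to 4.14.

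The genes whose level across the 8 libraries was most like that of Dusp1, among 10111 genes at or above a mean of 3 log2 CPM, were Aqp1, Nadk2 and Plekha1, each with a Pearson r of 0.998. Aqp1 encodes a water channel, Nadk2 a mitochondrial NAD kinase and Plekha1 a phosphoinositide-binding adaptor, with log2 fold changes of 2.86, 1.36 and 1.01. The genes most like Dusp5 were Creg1 (r = 0.998), the ribosomal protein gene Rpl21 (r = 0.997) and the MHC class I gene H2-D1 (r = 0.996), with log2 fold changes of -0.51, -0.33 and -0.58. Rpl21 and H2-D1 belong to families with similar copies, and sharing of reads with these was not tested. The 8 libraries fall into 2 separate groups, so these values of r mostly reflect the group difference.

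Other genes of the pathway were read from the same fit, list by list, beside the 16.9% of all genes that were called higher and the 17.2% called lower. Genes for ERK-dependent transcripts, which include the ETS factors Etv1, Etv4 and Etv5, had 7 of 12 members lower and 0 higher, with a median log2 fold change of -0.25. The other members that fell were Fosl1, Egr1, Phlda1 and Myc. Dusp5, an ERK-induced gene that fell, and Dusp6, a readout of ERK signalling that was not called, are not in this list. Fosl1, an AP-1 subunit, fell from 18.8 ± 1.44 to 9.01 ± 1.99 CPM (± SD, n = 4 per group; log2 fold change -1.06; edgeR adjusted p = 4.21e-05). NaCl library 5 was lowest at 6.28 CPM, and the other NaCl libraries had 9.22 to 11.1 CPM. Etv4 fell from 39.2 ± 2.81 to 25.8 ± 1.48 CPM (log2 fold change -0.61; adjusted p = 1.26e-06). With the drift in the fit Etv1 (adjusted p = 0.107) and Etv5 (0.0534) were not called, Epha4 (0.025) and Ier3 (0.0145) were called lower, and the count was again 7. Leaving out the deepest and the shallowest library, control library 1 and NaCl library 5, it was 6.

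The Sprouty and Spred genes, which encode inhibitors of the route from receptors to ERK, had 1 of 6 tested members lower and 0 higher, with a median of -0.01. That gene was Spry1, at 34.5 ± 1.86 CPM in control and 27.8 ± 4.20 CPM in NaCl libraries (± SD, n = 4 per group; log2 fold change -0.31; edgeR adjusted p = 0.016), and its groups overlapped. Spry2 had a log2 fold change of 0.03 (95% interval -0.13 to 0.19) and Spry4 of -0.11 (95% interval -0.42 to 0.21). With the drift 2 members were lower, Spry1 and Spry2 (adjusted p = 3.23e-06 and 0.00359), with Spry1 at -0.76.

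Of 15 genes of the ERK cascade, 3 were lower, with a median of -0.05. The Ras gene Nras fell from 117 ± 1.24 to 93.7 ± 1.46 CPM (± SD, n = 4 per group; log2 fold change -0.32; edgeR adjusted p = 1.23e-06). The scaffold gene Ksr1 fell with a log2 fold change of -0.24. Of 11 genes for p38, JNK and the kinases that activate them, 1 was higher and 2 lower, with a median of 0.06. Map2k7, a JNK activator, was the higher one at 0.13. Map2k6, a p38 activator, fell (log2 fold change -0.39; adjusted p = 0.00286), as did the JNK gene Mapk9 (-0.14). The p38 gene Mapk14 was at 87.3 CPM in control and 93.4 CPM in NaCl libraries (log2 fold change 0.10; adjusted p = 0.0555). With the drift, Ksr1 (-0.32), Map2k7 (0.11) and Mapk9 (-0.11) were not called (adjusted p = 0.0945, 0.297 and 0.411). Map2k6 was then at -0.76. In that fit Map2k1 and Mapk13 were called lower (adjusted p = 6.95e-07 and 0.0111) and Sos1 and Map2k3 higher (adjusted p = 0.0152 and 0.00594).

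Upstream stress kinases (MAP3Ks) and JNK scaffolds had 6 of 20 tested members higher and 1 lower, with a median of 0.07. Map3k9 rose with a log2 fold change of 0.54 and the JNK scaffold gene Mapk8ip1 with 0.30, and Map3k6 fell with -0.80 (edgeR adjusted p = 2.56e-04, 4.16e-04 and 2.43e-04). With the drift in the fit 3 were higher and 2 lower, and Map3k9 (adjusted p = 0.616) and Map3k6 (0.223) were not called. Kinases activated by MAP kinases had 3 of 10 higher and 2 lower. Rps6ka6 and Rps6ka5, a ribosomal S6 kinase and a mitogen- and stress-activated kinase, rose by log2 fold changes of 0.50 and 0.37, and Mknk2 and the p38 target kinase gene Mapkapk2 fell with -0.19 and -0.14. With the drift 1 was higher and 3 lower, with Mknk2 at -0.30 and Mapkapk2 at -0.23. Rps6ka5 was not called there, at a log2 fold change of 0.36 (adjusted p = 0.223).

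Among the atypical Dusp genes, mostly smaller phosphatases that lack the kinase-docking region, 1 of 11 tested genes was higher and 1 lower. Dusp18 had a log2 fold change of 0.29 (edgeR adjusted p = 0.00206) and Dusp11, an RNA phosphatase, of -0.15 (adjusted p = 0.00505), and neither was called with the drift. Dusp2, a nuclear MAP kinase phosphatase outside the rule, had 2.68 ± 0.486 CPM in control and 2.50 ± 0.410 CPM in NaCl libraries (± SD, n = 4 per group; log2 fold change -0.10, 95% interval -0.48 to 0.28). Of 11 other phosphatases of MAP kinases, a list that includes Dusp2, 4 were higher and 2 lower, and with the drift 1 and 1. Ppm1d, a phosphatase of p38 and of p53 pathway proteins, was the 1 gene still called higher with the drift. It had 24.7 to 31.7 CPM in control and 39.8 to 44.3 CPM in NaCl libraries (log2 fold change 0.59; adjusted p = 3.42e-06).

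Ptprr and Ptpn5, tyrosine phosphatases that dock on ERK and p38, were expressed at low levels. Counts of Ptprr were 21, 25, 29 and 23 in control and 57, 56, 69 and 86 in NaCl libraries (log2 fold change 1.54; edgeR adjusted p = 2.20e-04). Those of Ptpn5 were 20, 17, 6 and 11 against 22, 26, 52 and 30 (log2 fold change 1.37; adjusted p = 0.0125). For the related gene Ptpn7 they were 139, 81, 82 and 95 in control against 55, 42, 52 and 59 with NaCl (log2 fold change -0.81; adjusted p = 0.00764), and Ppp2cb, a catalytic subunit of protein phosphatase 2A, had a log2 fold change of -0.36. With the drift the adjusted p was 0.213 for Ptprr, 0.211 for Ptpn5 and 0.436 for Ptpn7, so these calls were lost.

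Proteins that bind AU-rich elements in short-lived mRNAs, Dusp1 mRNA among their known targets, had 0 of 8 genes higher and 2 lower. Zfp36l1 fell from 233 ± 24.9 to 178 ± 14.7 CPM (± SD, n = 4 per group; log2 fold change -0.39; edgeR adjusted p = 0.00674), and Zfp36l2 had a log2 fold change of -0.20 (adjusted p = 0.0021). Both encode proteins that promote mRNA decay. Zfp36 had 16.3 CPM in control and 18.3 CPM in NaCl libraries (log2 fold change 0.17; adjusted p = 0.156), and the stabilising factor gene Elavl1 was also not called (log2 fold change -0.05; adjusted p = 0.292). With the drift 2 genes were higher, Hnrnpd and Tia1 (adjusted p = 0.00319 and 0.0245), and 2 lower, with Zfp36l1 at -0.77.

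**Figure D5:**
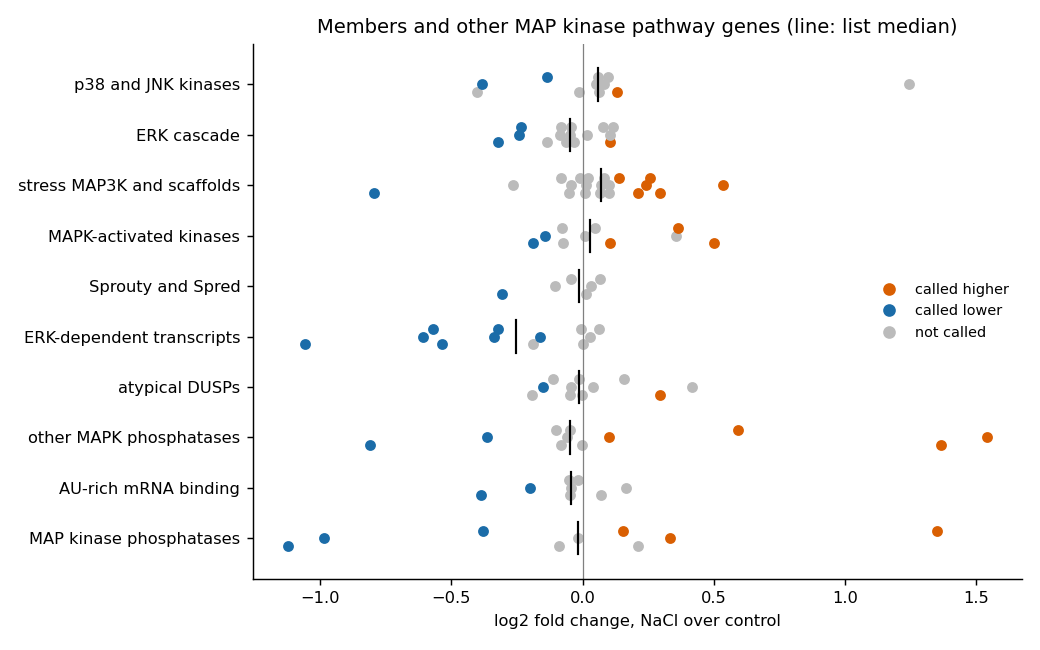
Log2 fold change (x axis) of the 9 members and of the tested genes in each pathway list, coloured by call, with the list median as a line. The ERK-dependent transcripts have the lowest median, -0.25, and the members spread from -1.12 to 1.35.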

How the data were processed

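Raw counts per Ensembl gene were deposited by the authors as whole numbers for 8 libraries. Trim Galore 0.6.7, STAR, DESeq2 1.34.0 and the build mm10 are listed in the submitters' processing notes, without roles. The counting program, annotation, strandedness and gene filter are not given in the sources used here. Genes were filtered with filterByExpr (minimum count 10), scaled by TMM and tested with edgeR 4.0.16 in R 4.3.3 by a robust quasi-likelihood F test with group as the single term and Benjamini-Hochberg adjustment over 14024 genes. Calls were made at an adjusted p under 0.05. CPM used TMM-scaled totals, and log2 CPM a prior count of 2. The test was checked on simulated counts. Exon lengths and overlaps came from GENCODE M21 on GRCm38 (15274 of 15288 identifiers matched), and 12 genes with a shared symbol were labelled by identifier. With blastn 2.17.0 (at least 75 bases, 98% identity), Dusp5 alone among the members shared sequence with another annotated gene, its antisense partner. Total counts per library were 35.3 to 47.6 M.

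The alternatives were other scalings and filters, DESeq2 1.42.0, limma-voom (limma 3.58.1), a threshold of 0.01, a test against a 1.5-fold change, library number as a covariate, and leaving out each library. Leaving out control replicate 1 and NaCl replicate 5 together was added after seeing the data. The members and lists were chosen with earlier results of these data known. The text names all 9 members, Dusp2, at most 2 called genes per direction in each list with the largest absolute log2 fold change, and the 3 genes with the highest Pearson r to Dusp1 and to Dusp5. Further genes of the lists, Ppm1d, Mapk14, Spry2, Spry4, Zfp36, Elavl1 and others, were named after their values were seen. A result that the naming rule would have included is not reported here.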

Additional observations from a re-analysis of the deposited data

Results flagged for a closer look

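Each set of 4 libraries was screened for a value set apart from its 3 neighbours. Of 22 such sets, 4 had one, and chance gives about 1.1. Total counts stood apart in control replicate 1 (47.6 M, others 41.8 to 42.7 M) and in NaCl replicate 5 (35.3 M, others 41.4 to 42.4 M). Dusp8 was lowest in NaCl replicate 7 at 14.3 CPM, against 16.8 to 16.9 CPM in its neighbours. For Dusp16, NaCl replicate 6 was lowest at 61.7 CPM, against 65.6 to 66.2 CPM.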

How the results depend on the processing

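No paired analysis was possible because the control libraries are numbered 1 to 4 and the NaCl libraries 5 to 8, so the groups share no number. Over 20 settings and 9 members, 167 of 180 results kept direction and side of the threshold. Most settings share nearly all of the data, and the threshold of 0.01 reused the main fit. With the linear drift over library numbers, 1 member was called higher (Dusp1) and 3 lower (Dusp4, Dusp5 and Dusp6). Log2 fold changes there were 0.26 for Dusp8, 0.077 for Dusp16, -0.22 for Dusp9, 0.20 for Dusp10 and -0.44 for Dusp6, and the class difference was 0.57. The cause was not tested. With the library number centred, Dusp6 was called at 0.20. Against a 1.5-fold change, 328 genes were called in place of 4789, with Dusp1 and Dusp5 as the 1 member higher and 1 lower. Dusp8 (0.33), Dusp16 (0.15), Dusp9 (-0.98) and Dusp4 (-0.38) lost their calls there. A threshold of 0.01 left 3145 genes and the same 3 members higher and 3 lower. The class difference was 0.69 with Dusp1 apart and 0.95 with means.

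Leaving out each library gave 4071 to 4634 called genes, 3 members higher and 3 lower each time, and a class difference of 0.71 to 0.84. Dusp10 ranged from -0.10 to 0.06, with 0.02 without control replicate 1 and 0.062 without NaCl replicate 8, and was 0.013 without control replicate 1 and NaCl replicate 5 together. It was called in none of these. Dusp1 stayed called in every refit, at 1.31 to 1.38 with a library left out, as did Dusp5, at -1.16 to -1.08. Dusp9 had the lowest counts of the members, 70 to 237 per library.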
